A study of Saccharomyces cerevisiae with 4 samples.

Results

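YPS1 and YPS3 are genes for yapsins, proteases of the yeast cell surface, and their transcript ratios after Congo Red treatment were measured on a microarray devoted to cell wall genes. The members were taken as the yapsins YPS1, YPS3, YPS6 and MKC7 (also called YPS2), as far as the array's annotation names them. That annotation names YPS1 (YLR120C) and YPS3 (YLR121C), so the family is represented by 2 of the 353 named genes and by 4 of the 896 spots. YPS6, MKC7 and YPS5 were not analysed here. YPS7 (YDR349C), a further gene of the family that lies outside the rule, is named on 2 spots and was used for comparison.

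Yapsins are aspartyl proteases that are held at the plasma membrane or in the wall by a glycosylphosphatidylinositol (GPI) anchor and cut other proteins next to basic residues. Yps1 was first recognised because it can take over the maturation of the mating pheromone precursor from the Golgi protease Kex2, and cells that lack several yapsins are sensitive to agents that disturb the wall. YPS1 and YPS3 are known to be transcribed more strongly through the cell integrity pathway, in which the MAP kinase Slt2 activates the transcription factor Rlm1. Hog1, the kinase missing from the strain used here, belongs to a different MAP kinase pathway, which answers to high osmolarity.

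All RNA came from Saccharomyces cerevisiae BY4741, a haploid laboratory strain, with HOG1 deleted. A rich medium culture kept at 24 °C was split, one part received Congo Red at 30 µg/ml, a dye that interferes with the assembly of the wall by binding its chitin and glucan, and the other part was left untreated. Both parts were harvested at 4 h, and total RNA of the 2 parts was hybridised together on each of 4 arrays. Arrays 1 and 3 had the treated RNA in channel 2, and arrays 2 and 4 had it in channel 1. The deletion is shared by both channels, so the ratios compare treated with untreated hog1 cells and say nothing about the effect of losing Hog1. They also compare RNA of whole cultures, so a change in every cell and a larger change in some cells cannot be told apart.

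The deposited values are log2 ratios, read here as Congo Red over untreated. The sources used here do not say which RNA is the numerator, so the direction is only likely, and its basis is that known wall stress genes are then higher. If the ratio ran the other way, the yapsin transcripts described as higher would be lower. The labels do not tell whether separate cultures lie behind the arrays, so p-values measure the spread among these arrays alone, and that spread may be technical. The deleted gene HOG1 (YLR113W) read 1.43, -1.73, -0.23 and 1.25 on arrays 1 to 4. Its values had no common sign and it did not pass (limma adjusted p = 0.894). They give no check of the deletion, since both channels hold RNA of the hog1 strain. It is also not known here whether the HOG1 probe lies in the deleted part. The duplicate spots of HOG1 differed widely (mean SD 0.45, against a median of 0.06 over the tested genes).

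Both yapsin members were higher after Congo Red, by different amounts. YPS3 was 5.38-fold higher and YPS1 2.04-fold higher, while the ratio of YPS7 was 1.19-fold and did not pass the test. Each gene was tested against 0 with limma, with Benjamini-Hochberg adjustment over all 348 genes that had values on at least 3 arrays. Both members passed at an adjusted p under 0.05 in the higher direction, as did 59 genes or 17.0% of those tested (33 genes without array 3 and 39 without array 1). The members were picked with such results known, so this count is a description.

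YPS3 encodes a less studied yapsin of the surface. Its log2 ratios were 1.79 on array 1, 2.81 on array 2, 2.21 on array 3 and 2.90 on array 4. All 4 arrays lay far above 0, and the lowest of them was still above the highest value of YPS1. The mean was 2.43 ± 0.52 (SD, n = 4; limma standard error 0.22, adjusted p = 0.00333), with a 95% interval of 1.86 to 2.99 from the same fit. A mean of at least 4-fold was reached by 7 of the 348 tested genes (2.01%), and YPS3 was number 3 of all tested genes by its mean.

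YPS1 encodes the best known yapsin, and this protease can replace Kex2. Its log2 ratios were 1.10, 0.77, 1.36 and 0.89 on arrays 1 to 4. Each was above 0, as were the values of 95 of the 348 tested genes (27.3%) on every array that measured them. The mean was 1.03 ± 0.26 (SD, n = 4; limma standard error 0.14, adjusted p = 0.00845), with a 95% interval of 0.67 to 1.38. YPS1 ranked 35th by its mean, at a level where 37 genes (10.6%) were at least 2-fold higher.

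YPS7 encodes a yapsin that has been studied little. On arrays 1 to 4 its log2 ratios read 0.09, 0.13, 0.43 and 0.35, all slightly above 0. The mean of 0.25 ± 0.17 (SD, n = 4) did not pass (limma adjusted p = 0.225). The 95% interval of -0.05 to 0.55 includes 0 as well as a small rise, and it ends below the intervals of both other yapsins.

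**Figure D1:**
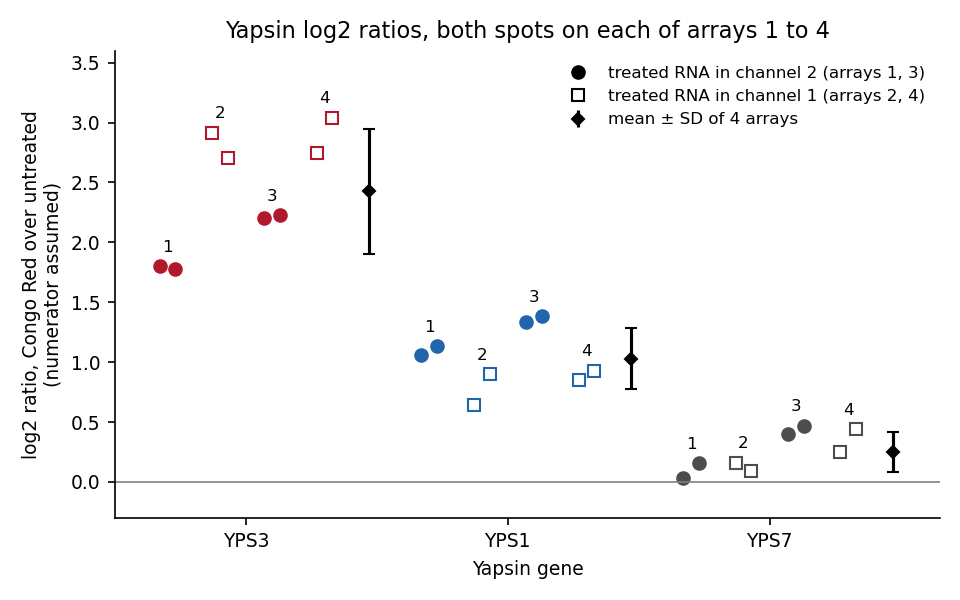
Log2 ratio of Congo Red over untreated RNA (vertical axis, numerator assumed) for both spots of YPS3, YPS1 and YPS7 (horizontal axis) on each array; numbers above the points are arrays, filled circles are arrays with treated RNA in channel 2, open squares those with it in channel 1, and diamonds with bars are the mean ± SD of 4 arrays. YPS3 spans 1.79 to 2.90 over the arrays, YPS1 0.77 to 1.36 and YPS7 0.09 to 0.43, and the 3 ranges do not overlap.

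Duplicate spots of each yapsin lay close together. The SD between the 2 spots of YPS3 ranged from 0.0142 to 0.205 over the arrays, that of YPS1 from 0.0352 to 0.183 and that of YPS7 from 0.0496 to 0.134. Averaged over the arrays these SDs were 0.10, 0.08 and 0.08, against a median of 0.06 over the tested genes. The differences between arrays were thus larger than those between spots of an array. The SD of YPS3 over arrays, 0.52, was above that of 78.0% of the 328 genes with 4 values, whose median was 0.28, while YPS1 lay near that median and YPS7 below it.

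The difference between the members was then taken within each array, where any shift shared by the genes of an array cancels. YPS3 exceeded YPS1 by 0.69, 2.04, 0.86 and 2.01 on the log2 scale on arrays 1 to 4, a mean of 1.40 ± 0.72 (SD, n = 4). The difference had one sign on 4 of 4 arrays, and its mean corresponds to a YPS3 ratio 2.63 times that of YPS1. An exact two-sided sign-flip permutation test gave p = 0.125, the smallest value that 4 arrays allow, so it cannot pass a threshold of 0.05 in this design. YPS3 exceeded YPS7 by 2.18 ± 0.51 and YPS1 exceeded YPS7 by 0.78 ± 0.22 (SD, n = 4), again on 4 of 4 arrays. Each of these pairs had the same exact permutation p of 0.125, which stayed at 0.125 after Benjamini-Hochberg adjustment over the 3 pairs.

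**Figure D2:**
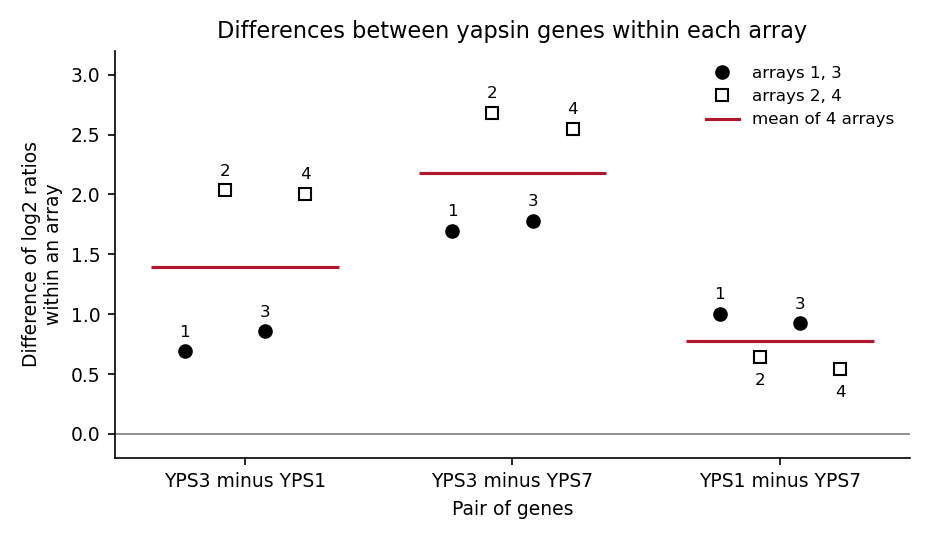
Difference between the log2 ratios of 2 yapsin genes on the same array (vertical axis) for the 3 pairs (horizontal axis); numbers mark the array, filled circles arrays 1 and 3, open squares arrays 2 and 4, and red lines the mean of 4 arrays. All 12 differences are above 0, and YPS3 minus YPS1 is near 2 on arrays 2 and 4 and below 1 on arrays 1 and 3.

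The size of the difference between YPS3 and YPS1 followed the channel order of the arrays. With the treated RNA in channel 2, YPS3 had a mean log2 ratio of 2.00 and YPS1 of 1.23, a difference of 0.77. With the treated RNA in channel 1, YPS3 had 2.85 and YPS1 0.83, a difference of 2.02. The ratio of YPS3 to YPS1 was thus 1.71 in the one order and 4.06 in the other, with YPS3 the higher in both. The difference between the orders was 1.25 with an exact permutation p of 0.333, the smallest that 2 against 2 arrays allow. YPS7 had means of 0.26 and 0.24 in the 2 orders.

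YPS3 and YPS1 moved with channel order in opposite directions. For YPS3 both arrays 1 and 3 lay below both arrays 2 and 4, a pattern found in 59 of the 328 genes with 4 values (18.0%), and in 16 of the 58 of them that passed as higher (27.6%). For YPS1 both arrays 1 and 3 lay above both arrays 2 and 4, as for 124 of the 328 genes (37.8%) and 10 of those 58 (17.2%). In a limma model with a term for channel order, that term was -0.43 for YPS3 (adjusted p = 0.0958) and 0.20 for YPS1 (adjusted p = 0.326). Neither passed, while the term passed for 23 of 348 genes (6.61%). The treatment effect of both members passed in that model (adjusted p = 0.000168 for YPS3 and 0.00161 for YPS1), as it did in the higher direction for 87 genes (25.0%). The part of dye, channel or array in these differences was not tested.

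**Figure D3:**
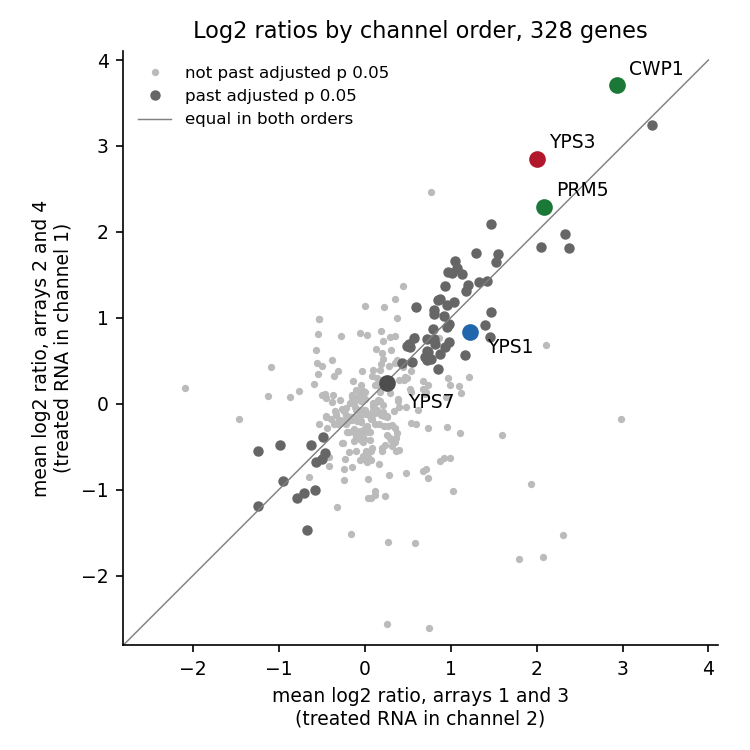
Mean log2 ratio on arrays 1 and 3 (horizontal axis) against that on arrays 2 and 4 (vertical axis) for the 328 genes with 4 values; dark points passed the limma test, the line marks equal means, and the yapsins, CWP1 and PRM5 are named. YPS3 lies above the line (2.00 and 2.85), YPS1 below it (1.23 and 0.83) and YPS7 close to it (0.26 and 0.24).

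The deposited values were used as already turned to one direction. If arrays 2 and 4 had instead to be turned, YPS3 would have a mean of -0.43 and YPS1 of 0.20, and limma called 0 genes in that reading (33 had an unadjusted p under 0.05). The rises of both members therefore rest on the deposited turning.

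YPS1 and YPS3 are direct neighbours on chromosome XII, with 0 genes between them in the R64 gene table. The same table places HOG1 on that chromosome arm, with 7 genes between it and YPS1 and 8 between it and YPS3. Among the genes within 10 places of either yapsin, the annotated array named only each other and HOG1, so the ratios of the genes in between were not analysed here. The ratios of these adjacent genes differed on each array. By the root mean square difference of log2 ratio over the 4 arrays, YPS3 was 289th in likeness to YPS1 of 327 genes, at 1.53, and YPS7 was 83rd, at 0.80. Counted from YPS3, YPS1 was 31st at the same 1.53 and YPS7 was 100th, at 2.22. Since yapsins resemble each other in sequence, a probe may take up transcript of another yapsin, and probe sequences were not used here.

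The genes with ratios most like those of YPS1 were GFA1, SVS1 and CHS7. GFA1, which encodes the first enzyme on the way to the chitin precursor, differed from YPS1 by a root mean square of 0.18 over the 4 arrays. SVS1, a wall protein gene, differed by 0.19, and CHS7, needed for export of a chitin synthase, by 0.20. Their mean log2 ratios were 1.11 ± 0.42, 0.96 ± 0.10 and 0.85 ± 0.24 (SD, n = 4), and all 3 passed (limma adjusted p = 0.0152, 0.00504 and 0.0129). GFA1 also shared the order of the arrays, with 1.33 and 1.58 on arrays 1 and 3 against 0.63 and 0.93 on arrays 2 and 4. The call of GFA1 was lost without array 1 (adjusted p = 0.0627) or array 3 (0.0522).

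The genes most like YPS3 were PRM5, KTR2 and GSC2, at larger distances. PRM5, a membrane protein gene, differed by a root mean square of 0.41, KTR2, a mannosyltransferase gene, by 0.66, and GSC2, which encodes a glucan synthase subunit, by 0.71. In the order of means YPS3 stood below CWP1, a wall mannoprotein gene, and the methyltransferase gene CRG1, and above PRM5, leaving aside ECM34, which had values on 3 arrays and did not pass. CWP1 exceeded YPS3 by 0.89 ± 0.12 within arrays (SD, n = 4, exact permutation p = 0.125, the smallest possible). PRM5 was below it by a mean of 0.24 ± 0.39, a difference smaller than its own spread (exact permutation p = 0.5). YPS1 was placed between TOH1 and FKS1, a glucan synthase gene, with mean differences of 0.02 and -0.0015 and SDs of 0.44 and 0.49 over the 4 arrays. CRG1, ECM34, TOH1 and FKS1 were named for their place in this order, after their values were seen.

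Other targets of the cell integrity pathway were mostly higher, like both yapsin members. Of 23 tested target genes other than yapsins, 18 rose and 0 fell, and 5 did not pass. Their median log2 ratio was 1.32, against 0.02 over the 348 tested genes, of which 59 rose and 13 fell (3.74%). The number that fell was 3 to 6 with any 1 array left out, 23 after centring, 24 after centring and scaling and 34 with channel order as a term. The genes with the largest changes were CWP1 (log2 3.32), PRM5 (2.19), KTR2 (2.15), FLC2 (2.09, a flavin carrier family gene) and GSC2 (1.78). FLC2 lost its call without array 1, 2 or 3 (adjusted p = 0.0538 to 0.0748). YPS3 was above 22 of the 23 targets and YPS1 above 8 of them. The list was written from general knowledge with results of these data known, so its counts describe the setting of the yapsins and support no direction.

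Genes of other GPI proteins share the yapsins' anchor. The 42 that were tested had 13 rises and 3 falls, beside 17.0% rises and 3.74% falls over all tested genes, and 26 did not pass. Rises and falls each made up a larger share of these genes than of all tested genes, while the ratio of rises to falls was about the same. The median log2 ratio was 0.34. The median of the GPI genes was between that of all genes and that of the integrity targets. In all, 6 of the 13 higher genes are also integrity targets, and 7 are not. The largest changes were those of CWP1, of SPS2, known from sporulation (log2 1.93 ± 0.78), and of the wall protein genes PST1 (1.64 ± 0.23), SED1 (1.52 ± 0.27) and NCW2 (1.37 ± 0.14; SD, n = 4 each). SPS2 lost its call without array 3 (adjusted p = 0.0568). YPS3 lay above 41 of the 42 GPI genes and YPS1 above 35. Without array 3 the GPI genes called higher numbered 8, and without array 1, 3 or 4 the number called lower was 1.

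Of the 23 genes for making or attaching the GPI anchor written into a list, 4 are on the array. SPT14, which acts at the first step of anchor synthesis, was higher (log2 1.21 ± 0.43, SD, n = 3; limma adjusted p = 0.0268), and its duplicate spots differed widely (mean SD 0.80). The other 3 did not pass. The median of the 4 was 0.63, but it rests on array 4: GPI1, which acts at the same step, had -0.23 and -0.21 on arrays 1 and 3 and 3.63 on array 4. Without array 4, a check chosen after seeing the data (as was naming GPI1), the median was -0.03.

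**Figure D4:**
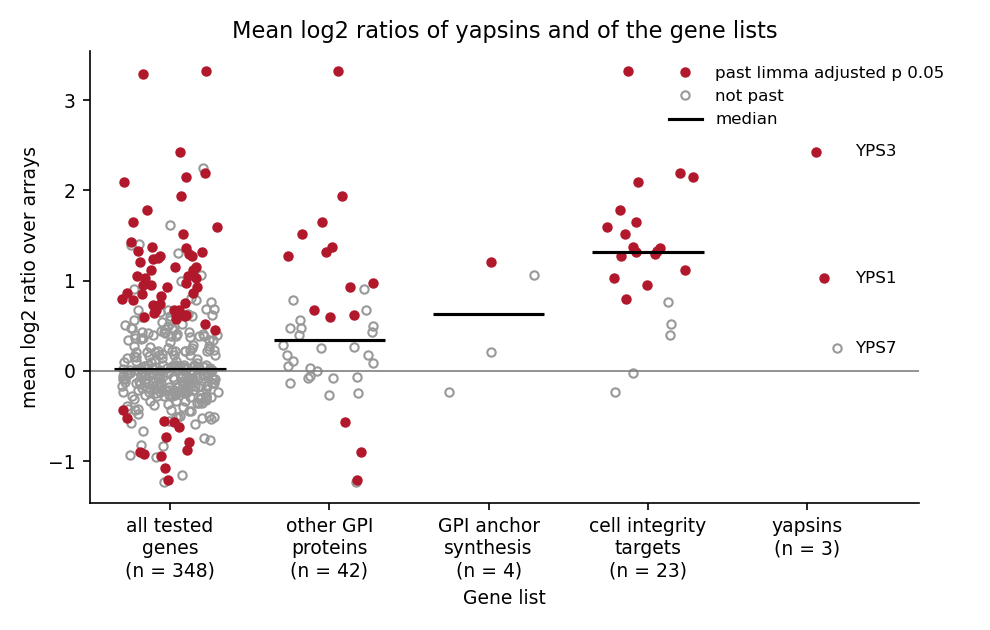
Mean log2 ratio over the arrays (vertical axis) of all tested genes, other GPI protein genes, GPI anchor genes, cell integrity targets and the yapsins (horizontal axis, number of genes in brackets); red points passed the limma test and black lines are medians. The medians are 0.02, 0.34, 0.63 (-0.03 without array 4) and 1.32, YPS3 (2.43) lies above all integrity targets except CWP1, and YPS7 (0.25) lies below the median of the GPI proteins.

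Among 15 other proteases of the secretory route, surface and vacuole written into a list, the array names 1, PRB1, the gene of a vacuolar serine protease. On arrays 1 to 4 PRB1 read 0.59, 1.28, 1.13 and 0.25 on the log2 scale. All were above 0 but they spread widely, and the mean of 0.81 ± 0.48 (SD, n = 4) missed the threshold (limma adjusted p = 0.0513). The call was made with a channel order term in the model (adjusted p = 0.0255). It was also made among genes with 4 values only (0.0408) and without array 4 (0.0385). With arrays averaged in pairs it was made too (0.00391), but there limma gave PRB1, GAS1 and HOG1 the same standard error (0.236). PRB1's own spread did not enter that fit. The threshold was missed after centring (0.071), centring and scaling (0.0671), turning (0.98) and with robust variance (0.0501). Without array 1, 2 or 3 it was missed as well (0.0993, 0.124 and 0.162).

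Of the proteins written down as proposed yapsin substrates, the array names GAS1, which encodes a GPI-anchored enzyme that elongates glucan. Its log2 ratios were 0.74, -1.08, 0.62 and -0.49 on arrays 1 to 4. The sign followed the channel order, positive on arrays 1 and 3 and negative on arrays 2 and 4. In the limma model with a term for channel order, that term was 0.73 for GAS1 and passed (adjusted p = 0.0368), as for 23 of 348 genes (6.61%). The mean log2 ratio of GAS1 was -0.05 ± 0.88 (SD, n = 4; limma adjusted p = 0.945), and it was 0.73 with arrays 2 and 4 turned (limma adjusted p = 0.3). Transcript ratios of a substrate or of a protease gene do not measure cleavage.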

How the data were processed

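The authors deposited log2 ratios of the 2 channels per spot for 4 arrays, and per the labels each channel holds treated or untreated RNA. The log base was read from the values. The labels name no dyes, scanner, background correction, normalization or numerator, and signal intensities were not used, so dim or saturated spots could not be set apart. Median log2 ratios over spots were 0.01, -0.13, 0.22 and 0.07 on arrays 1 to 4.

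Names of spots came from an old platform annotation, in which 724 have 1 gene, 10 several and 162 none here. All 353 named genes matched the R64 gene table, used for names and gene order. Spots of a gene were averaged per array. Genes with values on at least 3 arrays (348) were tested against 0 with limma 3.58.1 in R 4.3.3 (lmFit, eBayes, Benjamini-Hochberg, threshold 0.05). This procedure was also run on simulated data with independent noise and no effect of channel order. That run covers neither such an effect nor errors shared by the genes of an array, and its outcome is not used here. Yapsins were compared by exact sign-flip permutation within arrays. The number of arrays limits the precision.

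The members and gene lists were chosen with earlier results of these data known. Named genes were the yapsins, HOG1, the 3 genes most like YPS1 and YPS3 each, all proteases and substrates on the array and up to 5 called genes of each other list. Alternatives were centring, scaling, turning of arrays 2 and 4, a term for channel order, averaged array pairs, genes with 4 values only, robust variance, single spots and each array left out. Figures used matplotlib 3.10.9 in Python 3.11.15.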

Additional observations from a re-analysis of the deposited data

How the results depend on the processing

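The calls of YPS1 and YPS3 and the missed call of YPS7 held under each alternative, except that turning arrays 2 and 4 ended both calls. With arrays averaged in pairs, limma gave YPS1, YPS3 and YPS7 the same standard error of 0.236. The calls of that alternative thus depend on the mean and not on the spread of each gene. Left-out arrays gave means of 0.92 to 1.11 for YPS1, 2.27 to 2.64 for YPS3, 0.19 to 0.30 for YPS7 and 1.18 to 1.63 for YPS3 minus YPS1. Turning took YPS1 to 0.20 and reversed YPS3 (-0.43), YPS3 minus YPS1 (-0.62), YPS3 minus YPS7 (-0.44), PRM5 (-0.10), GSC2 (-0.31), CWP1 (-0.39), PST1 (-0.095), SED1 (-0.23), NCW2 (-0.043) and GAS1 (0.73), with 0 genes called higher or lower over the array, among the integrity targets or among the GPI genes. The cause was not tested. Genes called over the array numbered 59 higher and 13 lower (81.9% higher). They were 60 and 23 after centring (72.3%), 64 and 24 after centring and scaling (72.7%), 87 and 34 once channel order was a term (71.9%). They were 33 (without array 3) to 46 higher with 3 to 6 lower with an array left out, where fewer arrays and genes entered. Among GPI genes 8 to 11 were then higher and 1 to 2 lower, and among integrity targets 15 to 18 and 0. Means of HOG1 then ran from -0.24 to 0.82 and of GAS1 from -0.31 to 0.29, so both changed sign. For genes and pairs other than the yapsins, 6 calls were lost and 1 was gained with an array left out, 13 were lost on turning, and 3 were gained under the other alternatives, all for PRB1. No further pairing of treated with untreated samples was possible, because the arrays form 1 group, each already a ratio of both parts of the culture.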

Other observations

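Some genes ran parallel to YPS3 over the arrays at a nearly fixed distance, a description made after the values were seen. By the SD of the within-array difference over the 4 arrays, CCW14, the gene of a GPI wall protein, ran closest of 327 genes. It was lower than YPS3 by a mean of 1.64, with a difference of -1.63, -1.65, -1.67 and -1.62 on arrays 1 to 4 (SD 0.02). HSP12 and DDR2, genes known from the general stress response, followed with SDs of 0.06 each, at mean differences of -2.04 and -2.73. The mean log2 ratios of CCW14, HSP12 and DDR2 were 0.78, 0.38 and -0.30, and none of the 3 passed against 0 (limma adjusted p = 0.0725, 0.33 and 0.429). For YPS1 the closest were MCM1, a transcription factor gene (SD 0.02, mean difference -1.23), and IPT1, a sphingolipid synthesis gene (SD 0.03, mean difference -0.82), with mean log2 ratios of -0.20 and 0.21 that did not pass either (limma adjusted p = 0.374 and 0.357). YPS3 itself ranked 277th of 327 in this measure against YPS1, with an SD of 0.72, and YPS7 107th, with 0.22. The genes share the 4 arrays and their channel order, no test was made of these distances, and the closest of many genes lie close by selection.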
